A study of Mus musculus with 16 samples.

Results

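The 30 genes described here make cholesterol and fatty acids or control that supply: 7 enzymes from acetyl-CoA to the isoprenoids, 11 enzymes from squalene to cholesterol, 5 regulators of the SREBP transcription factors, 1 sterol carrier and 6 enzymes of fatty acid synthesis. They were chosen by symbol, and all 30 were found among the 20200 genes of the count table. RNA was sequenced from myeloid cells sorted from the tissue around the grafted tendon after anterior cruciate ligament reconstruction (ACLR), an operation in which the cut ligament is replaced by a tendon drawn through bone tunnels, in 12-week-old male wild-type C57BL/6 mice. All mice were operated on, so that no group is an unoperated control. From live, lineage-negative CD45+ CD11b+ cells, 4 populations were taken on days 1 and 14 after surgery: Ly6G- F4/80+ CD9+ cells (CD9+ macrophages, among them the rare cells that also carry CX3CR1), Ly6G- F4/80+ CX3CR1+ cells (CX3CR1+ macrophages), cells negative for both Ly6G and F4/80 (named F4/80- myeloid cells) and Ly6G+ cells (neutrophils). Each of these 8 groups had 2 libraries, 16 in all, and a library held the cells of 5 to 7 pooled mice, so p-values measure the spread between pools. Per the study's methods the populations were sorted from common pools, so the 4 populations of a day are not independent sets of mice.

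Cells build cholesterol from acetyl-CoA through mevalonate, the isoprenoids, squalene and lanosterol, and they build fatty acids from the same acetyl-CoA, which ATP citrate lyase releases from citrate. Both branches are driven by the SREBP factors, which the SCAP protein carries out of the endoplasmic reticulum for activation when membranes are short of cholesterol, while the INSIG proteins hold them back when sterols are plentiful. In macrophages these genes are known for their link to cholesterol loading and to inflammatory signalling, while neutrophils are short-lived cells that no longer divide once mature.

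The promoters of 24 of the 30 genes were in the RefSeq promoter table of GRCm38.p6. Those of Fdps, Fdft1, Sqle, Stard4, Scd1 and Scd2 were not matched. The 250 bases before each listed start of a gene, of which some genes have several, were searched on both strands for CCAAT, the box bound by NF-Y, a usual partner of the SREBP factors. At least 1 such box was found in 19 of the 24 genes (79.2%), against 40.6% of the 8851 tested genes in the table and 37.5% of all 27025 genes there. The E-box CACGTG, to which SREBP and related factors can bind, was found in 5 of 24 (20.8%), against 10.2% of tested genes and 6.86% of all. The letters TCACNCCAC, a form of the sterol regulatory element, were found in 1 of 24, Hmgcs1 (4.17%), against 1.16% of tested genes and 1.22% of all. The windows of Hmgcs1 and Sc5d, whose levels were higher in neutrophils, and of Fasn, whose level was lower there, are shown 5′ to 3′, with the matches in capitals. In Hmgcs1 (chr13:119690101-119690350, plus strand) the sterol element starts 137 bases before the gene start and reverse CCAAT boxes, written ATTGG, start 237, 176 and 45 bases before it. In Sc5d (chr9:42264301-42264550, minus strand) the E-box starts 98 and a reverse CCAAT box 24 bases before the start. In Fasn (chr11:120824548-120824797, minus strand) a reverse CCAAT box starts 90 bases before the start, and a forward and a reverse one, which overlap, start 62 and 59 bases before it. None of the 3 windows overlaps an annotated exon.
Hmgcs1: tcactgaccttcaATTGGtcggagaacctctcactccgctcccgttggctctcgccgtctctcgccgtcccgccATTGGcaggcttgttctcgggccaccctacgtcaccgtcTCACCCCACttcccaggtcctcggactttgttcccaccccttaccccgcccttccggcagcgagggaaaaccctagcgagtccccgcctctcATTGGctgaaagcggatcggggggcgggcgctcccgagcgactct
Sc5d: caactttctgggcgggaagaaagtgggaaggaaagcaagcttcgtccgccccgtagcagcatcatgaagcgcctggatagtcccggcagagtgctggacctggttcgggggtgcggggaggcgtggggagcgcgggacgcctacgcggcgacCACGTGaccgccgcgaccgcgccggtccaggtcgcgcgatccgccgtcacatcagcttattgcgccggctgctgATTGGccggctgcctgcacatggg
Fasn: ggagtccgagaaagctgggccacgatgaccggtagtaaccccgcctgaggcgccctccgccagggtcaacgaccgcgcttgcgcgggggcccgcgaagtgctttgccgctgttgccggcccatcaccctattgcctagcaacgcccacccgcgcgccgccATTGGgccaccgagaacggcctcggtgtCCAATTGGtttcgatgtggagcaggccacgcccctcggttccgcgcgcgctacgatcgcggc
A CCAAT box was thus present in the window of a gene that was higher and of a gene that was lower in neutrophils.

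The libraries held 9233952 to 19814119 counted reads, from 10587857 on day 1 and up to 12721779 on day 14. Levels are given as CPM, counts scaled to a common library size, after TMM scaling, with factors of 0.752 to 0.781 in the 4 neutrophil libraries and 0.897 to 1.16 in the other 12. The 2 libraries of CD9+ macrophages on day 1 differed from each other more than the libraries of other groups. The SD of their log2 differences over genes was 0.912, against 0.382 to 0.625 in the other 7 groups, and 7 of the 28 tested members lay more than 2-fold apart there, among 15.2% of all tested genes. Where leaving out 1 of its libraries changed a call or moved a called fold by more than 1.5 times, that is stated. The labelled cell types were checked against marker genes. The 5 macrophage genes summed to 720 to 1635 CPM in the CD9+ and CX3CR1+ libraries, 172 to 214 CPM in F4/80- cells and 179 to 579 CPM in neutrophils. The 5 neutrophil genes summed to 17120 to 36200 CPM in neutrophils, 8189 to 10250 CPM in F4/80- cells, 1661 to 4457 CPM in CD9+ cells and 411 to 473 CPM in CX3CR1+ cells. Most of the sum in F4/80- and CD9+ cells was Ltf, at 7979 to 9724 CPM and 1451 to 4170 CPM, against 8.05 to 61.05 CPM in CX3CR1+ cells. Ltf, Cxcr2 and Ly6g were called higher in CD9+ than in CX3CR1+ cells on both days. Mmp8 was called lower on both days and Csf3r on day 14. The 4 eosinophil genes summed to 5806 and 9368 CPM in CD9+ cells on day 14, to 489 and 561 CPM in these cells on day 1, and to at most 115 CPM elsewhere. The 3 basophil and mast cell genes summed to 318 to 631 CPM in F4/80- cells, 39.1 to 115 CPM in CD9+ cells and at most 3.59 CPM in the other groups. In no library did the 3 B cell genes or the 2 T cell genes in the table exceed 3.99 and 1.75 CPM in sum, and the 4 erythroid, 4 dendritic and 4 stromal genes reached 55.8, 58.1 and 49.9 CPM. None of the 4 adipocyte genes searched for had a row in the table. The part of such cells in the differences described here was not tested.

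All but 2 of the 30 members reached a mean of 3 CPM in at least 1 group and were tested among 11998 genes. The untested ones were Scd1, a stearoyl-CoA desaturase best known from liver and fat, and Fdps, which joins isoprenoid units to farnesyl diphosphate. Scd1 had 0 and 0.631 CPM on day 1 and 1.53 and 1.42 CPM on day 14 in CD9+ macrophages. It had 0.175 and 0.260 CPM, then 0.261 and 1.29 CPM, in CX3CR1+ macrophages and 0.827 and 0.274 CPM, then 0.290 and 0.732 CPM, in F4/80- cells. Neutrophils had 0.299 and 0.0875 CPM, then 0.240 and 0.513 CPM. Scd1 was near the limit of detection in every group, at 0 to 17 reads. Fdps held 0.0875 to 1.13 CPM, but 81.3% of a main transcript of this gene lies inside the exons of Gm43738, an overlapping gene on the same strand, and how reads in both genes were counted was not stated in the sources used here. Per kilobase of annotated exon, Acly had the highest group mean of the 28 tested members in 7 of 8 groups, at 33.5 to 51.8 CPM per kb, and Srebf2 was second there and first in neutrophils on day 1 at 40.3 CPM per kb. The group medians over the tested members were 3.08 to 4.46 CPM per kb.

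**Figure D1:**
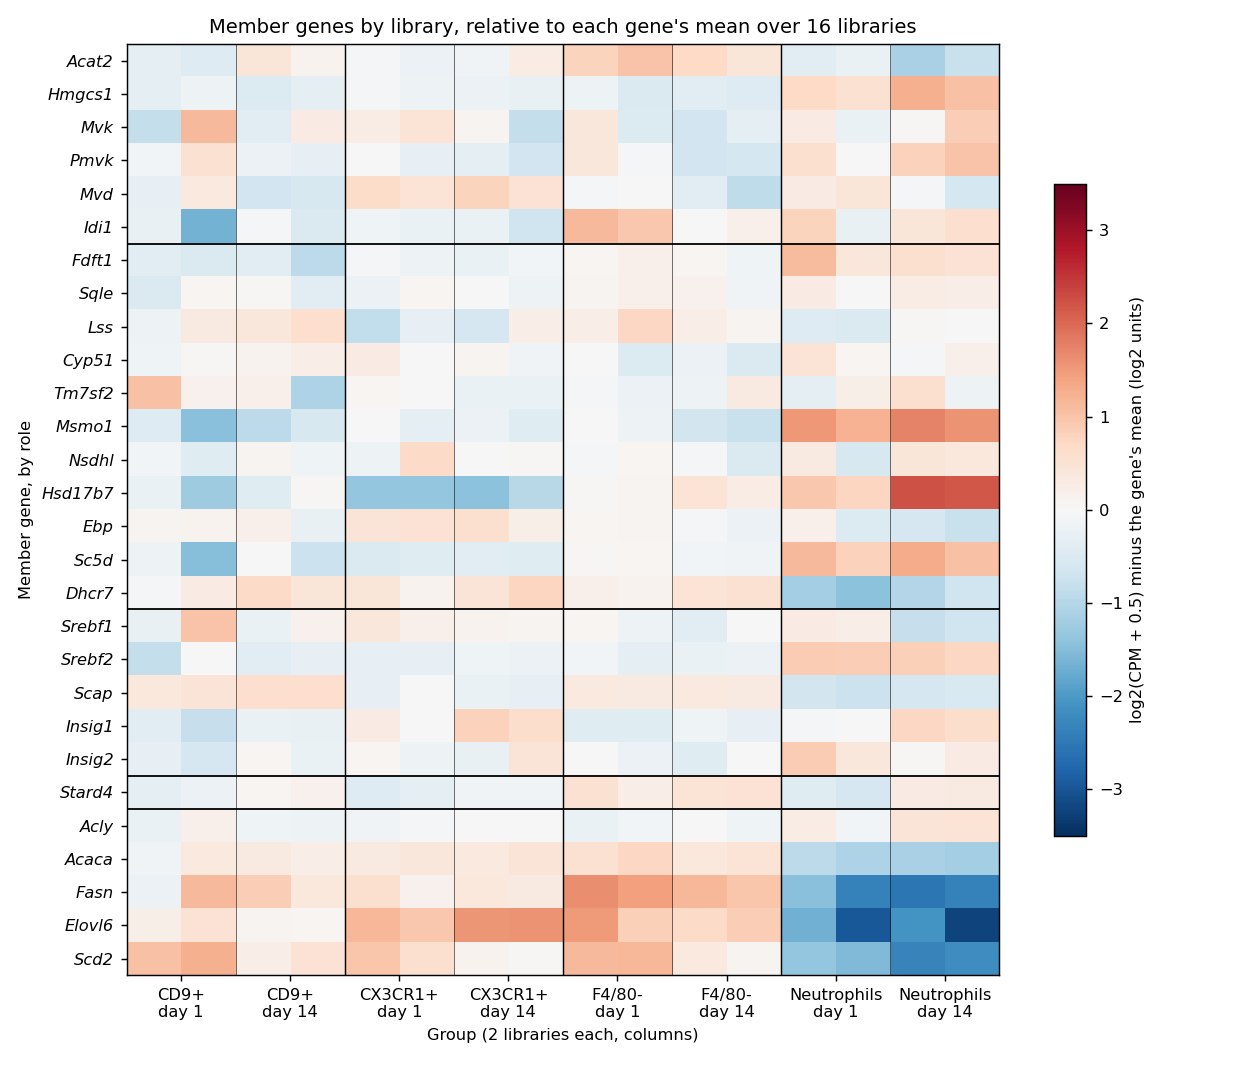
Level of each of the 28 tested members (rows, ordered by role, black lines between roles) in the 16 libraries (columns, 2 per group), as log2(CPM + 0.5) minus the mean of the gene over all libraries. The 4 neutrophil libraries stand apart, red for Msmo1, Hsd17b7 and Sc5d and blue for Fasn, Elovl6 and Scd2, while the 2 CD9+ libraries of day 1 differ from each other.

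The first comparison asked how CD9+ macrophages differ from neutrophils, and here the members showed their largest differences. On both days 4 of the 5 tested fatty acid enzymes were higher in CD9+ macrophages, Acly being the exception, and Fdft1, Msmo1, Hsd17b7 and Sc5d of the sterol branch were higher in neutrophils. Calls needed an adjusted p below 0.05 (edgeR, quasi-likelihood, Benjamini-Hochberg over all tested genes) together with a log2 fold change of 1 or more in either direction. On day 1, 6 of 28 members were called higher and 7 lower in CD9+ macrophages, where the background over all genes was 27.9% higher and 21.7% lower. On day 14, 7 were called higher and 7 lower, against 29.6% and 19.9% of all genes. The members were thus called at rates close to those of all genes, at 46.4% on day 1 and 50% on day 14 in both directions together. Of them, 6 were higher (Dhcr7, Scap, Acaca, Fasn, Elovl6 and Scd2) and 5 lower (Fdft1, Msmo1, Hsd17b7, Sc5d and Srebf2) on both days, as were 23.1% and 14.9% of all genes. Over all libraries, for 6 members (Hmgcs1, Fdft1, Msmo1, Hsd17b7, Sc5d and Srebf2) all 4 neutrophil libraries lay above all 12 others, as for 21.6% of all tested genes, and for 6 (Dhcr7, Scap, Acaca, Fasn, Elovl6 and Scd2) they all lay below, as for 23.1%. In bulk samples fewer cells with a transcript and less of it per cell cannot be told apart.

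Of the 5 tested enzymes of fatty acid synthesis, 4 were called higher in CD9+ macrophages than in neutrophils on both days, as were 23.1% of all genes. The median log2 fold change of the 5 enzymes was 2.49 on day 1 and 2.71 on day 14. Fasn, the synthase that assembles palmitate, had 31.4 and 79.9 CPM on day 1 and 65.8 and 46.5 CPM on day 14 in CD9+ macrophages, against 12.9 and 6.65 CPM and then 5.88 and 6.56 CPM in neutrophils. The groups did not overlap, with log2 fold changes of 2.49 (SE 0.37) and 3.17 (SE 0.40), the first being 1.66 without the second CD9+ library of day 1. Scd2 (chr19:44293676-44306864, plus strand), a desaturase of the same family as Scd1, had 77.8 and 89.99 CPM, then 44.8 and 54.0 CPM, in CD9+ macrophages against 14.4 and 12.6 CPM, then 7.08 and 8 CPM, in neutrophils. This was a difference of 2.63 (SE 0.18) on day 1 and 2.71 (SE 0.19) on day 14 on the log2 scale. Elovl6, which lengthens palmitate to stearate, had 7.19 and 9.05 CPM, then 6.70 and 6.57 CPM, in CD9+ macrophages and 1.57 and 0.350 CPM, then 1.08 and 0.205 CPM, in neutrophils. Its differences of 3.02 (SE 0.50) and 3.41 (SE 0.57) were the largest of the members, with as few as 2 reads in a neutrophil library. Without the first or second neutrophil library they were 4.49 or 2.36 on day 1 and 4.96 or 2.61 on day 14. Acaca, the acetyl-CoA carboxylase that commits carbon to this branch, was higher by 1.16 (SE 0.18) and 1.47 (SE 0.18), but without the second CD9+ library of day 1 its difference was 0.91 and it was not called. Some reads of Acaca are hard to place, as 30.4% of the 50-base stretches of its exons also occur elsewhere in annotated transcripts. The adjusted p of these 4 genes was at most 8.89e-05. Acly behaved differently from the enzymes below it. It had 168 and 227 CPM, then 178 and 176 CPM, in CD9+ macrophages and 236 and 184 CPM, then 271 and 276 CPM, in neutrophils, with log2 fold changes of -0.09 on day 1 and -0.63 on day 14, of which the second passed the adjusted p (0.00154) but not the fold.

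**Figure D2:**
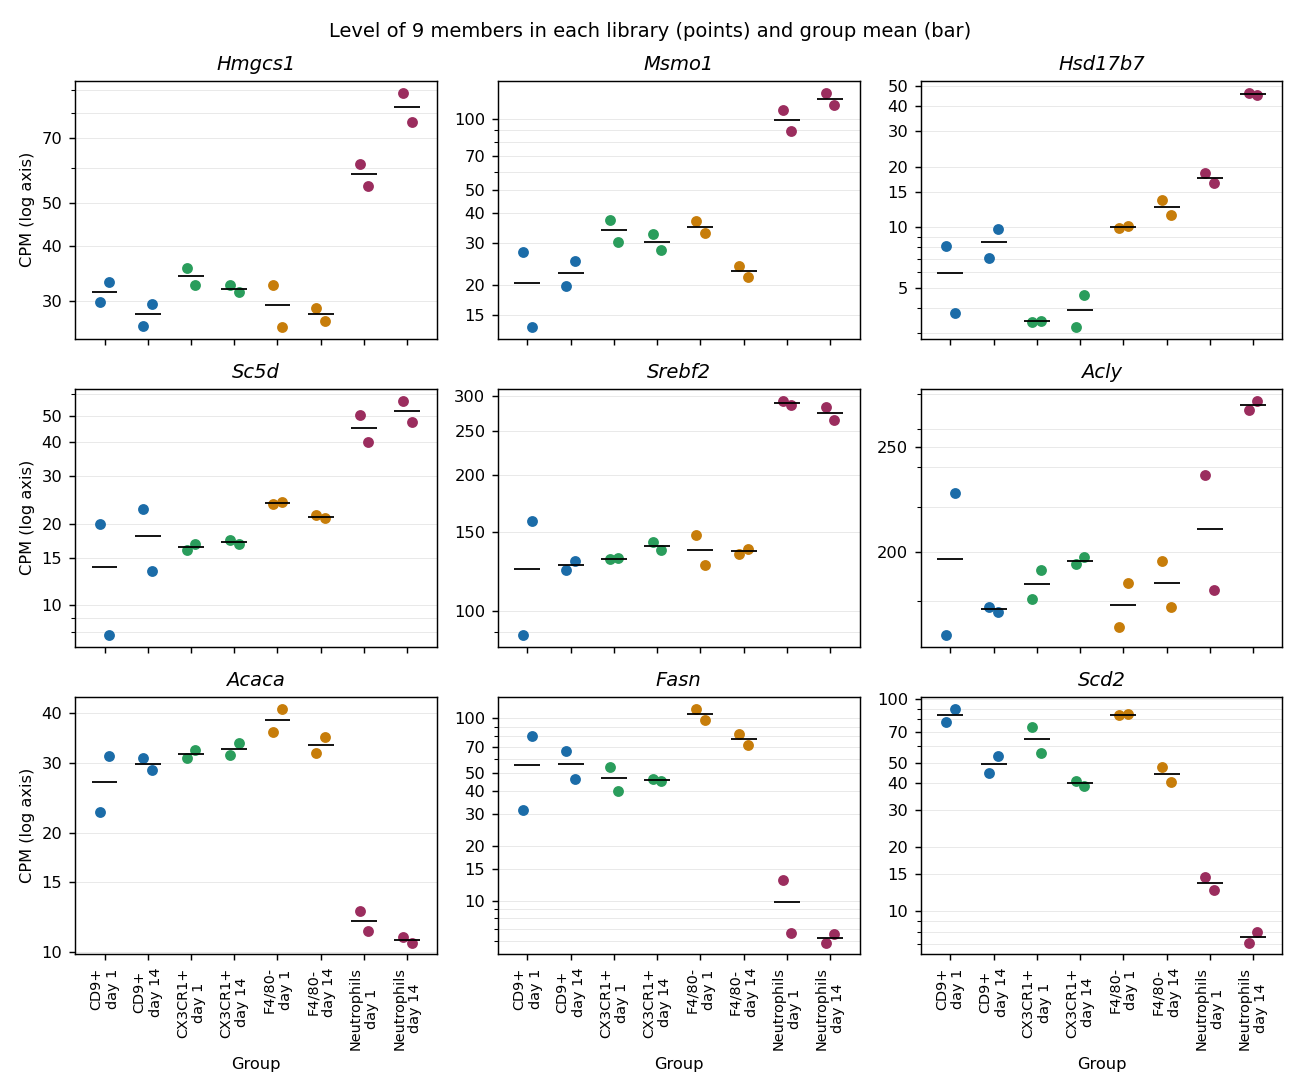
CPM of 9 members in each library (points, log axis) and the mean of each group (black bars), with groups on the horizontal axis. Neutrophil libraries lie above all others for Hmgcs1, Msmo1, Hsd17b7, Sc5d and Srebf2 and below all others for Acaca, Fasn and Scd2, whereas Acly overlaps.

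Of the 17 tested sterol enzymes 1 was called higher and 5 lower in CD9+ macrophages than in neutrophils on day 1, and 2 and 6 on day 14. Among all genes 27.9% were higher and 21.7% lower on day 1, and 29.6% and 19.9% on day 14. Msmo1 (chr8:64718139-64733792, minus strand of mm10), the methylsterol monooxygenase, had 27.6 and 13.4 CPM on day 1 and 19.8 and 25.4 CPM on day 14 in CD9+ macrophages, 37.5 and 30.4 CPM and then 32.7 and 28.1 CPM in CX3CR1+ macrophages, and 37.3 and 33.2 CPM and then 24.1 and 21.7 CPM in F4/80- cells. In neutrophils it had 109 and 88.6 CPM, then 128 and 114 CPM, the lowest being more than any other library. CD9+ macrophages were lower by 4.76-fold on day 1 and 5.37-fold on day 14 (log2 fold changes of -2.25, SE 0.25, and -2.42, SE 0.26, adjusted p = 1.71e-06 and 8.17e-07), and by -2.88 on day 1 without the first CD9+ library. Hsd17b7 (chr1:169949535-169969241, minus strand), the ketosteroid reductase that completes the removal of these methyl groups, had 8.10 and 3.79 CPM, then 7.08 and 9.80 CPM, in CD9+ macrophages and 18.7 and 16.5 CPM, then 46.5 and 45.1 CPM, in neutrophils, a difference of -1.54 (SE 0.30, or -2.21 without the first CD9+ library) and -2.44 (SE 0.30). Sc5d, the sterol desaturase near the end of the pathway, was lower in CD9+ macrophages by log2 fold changes of -1.67 (SE 0.32, or -2.53 without the first CD9+ library) and -1.53 (SE 0.32), its 4 neutrophil libraries holding 39.9 to 56.8 CPM and the other 12 at most 24.1 CPM. Fdft1, the squalene synthase, was lower by -1.28 (SE 0.23) and -1.18 (SE 0.23), but was not called without the first neutrophil library of day 1 (-0.87) or the second CD9+ library of day 14 (-0.92). It also shares 18.3% of its exon length with Ctsb, an abundant lysosomal gene on the opposite strand. Dhcr7, which makes the last reduction to cholesterol, went the other way, with 1.75 to 3.28 CPM in neutrophils and 5.36 to 9.90 CPM elsewhere, and was higher in CD9+ macrophages by 1.64 (SE 0.32) and 1.53 (SE 0.32).

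Hmgcs1, the synthase of an early step on the way to mevalonate, had 29.9 and 33.2 CPM on day 1 and 26.4 and 29.6 CPM on day 14 in CD9+ macrophages. Its levels were 35.6 and 32.7 CPM, then 32.6 and 31.4 CPM, in CX3CR1+ macrophages and 32.6 and 26.2 CPM, then 29.0 and 27.0 CPM, in F4/80- cells. Neutrophils held 61.3 and 54.7 CPM, then 88.7 and 76.2 CPM. The 12 other libraries were thus within 26.2 to 35.6 CPM, and all neutrophil libraries lay above them. The log2 fold change of CD9+ macrophages was -0.88 (SE 0.15) on day 1, under the fold threshold, and -1.56 (SE 0.16) on day 14, which was called. Pmvk, the phosphomevalonate kinase, was called lower on day 14 (-1.19, SE 0.28) and not on day 1 (-0.07), and the difference between these was not called by edgeR (adjusted p = 0.0794). Acat2, the thiolase that starts the pathway, had 1.41 and 1.26 CPM, then 2.77 and 2.12 CPM, in CD9+ macrophages and 1.34 and 1.57 CPM, then 0.6002 and 0.923 CPM, in neutrophils. It was higher in CD9+ macrophages on day 14 by 1.66 (SE 0.52, adjusted p = 0.0107), a call lost without the first CD9+ library (1.48) or the first neutrophil library (1.40) of that day, and 39.1% of its 50-base stretches occur in other transcripts as well. Idi1, the isomerase that makes the second isoprenoid unit, had 4.16 and 1.26 CPM, then 4.78 and 3.44 CPM, in CD9+ macrophages and 9.12 and 4.11 CPM, then 6.96 and 7.79 CPM, in neutrophils. It was called lower in CD9+ macrophages on day 1 (-1.24, SE 0.47) although the libraries overlapped, and not without the second CD9+ library (-0.68, against -2.39 without the first) or the first neutrophil library (-0.55) of that day.

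The regulators differed as well. Srebf2 (chr15:82147181-82205379, plus strand), the SREBP gene that mainly drives the sterol branch, had 88.7 and 159 CPM, then 124 and 129 CPM, in CD9+ macrophages. It had 131 CPM in both libraries, then 142 and 137 CPM, in CX3CR1+ macrophages and 147 and 126 CPM, then 134 and 137 CPM, in F4/80- cells. In neutrophils its levels of 292 and 287 CPM, then 283 and 265 CPM, lay above all others. The log2 fold change of CD9+ macrophages against neutrophils was -1.23 (SE 0.19) on day 1 and -1.12 (SE 0.19) on day 14. Without the first CD9+ library of day 1 it was -0.87 and not called. Scap, the escort of SREBP, was higher in CD9+ macrophages by 1.13 (SE 0.15) and 1.17 (SE 0.15), with 14.8 to 17.3 CPM in neutrophils and 32.2 to 38.3 CPM in the CD9+ libraries. Insig2 was lower on day 1 (-1.17, SE 0.34), a call lost without the first neutrophil library (-0.88), and not called on day 14 (-0.27). Insig1, the other retention protein and itself a target of SREBP, differed by -0.55 (SE 0.17) and -0.94 (SE 0.17), with adjusted p = 0.00863 and 1.41e-04 and under the fold threshold.

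**Figure D3:**
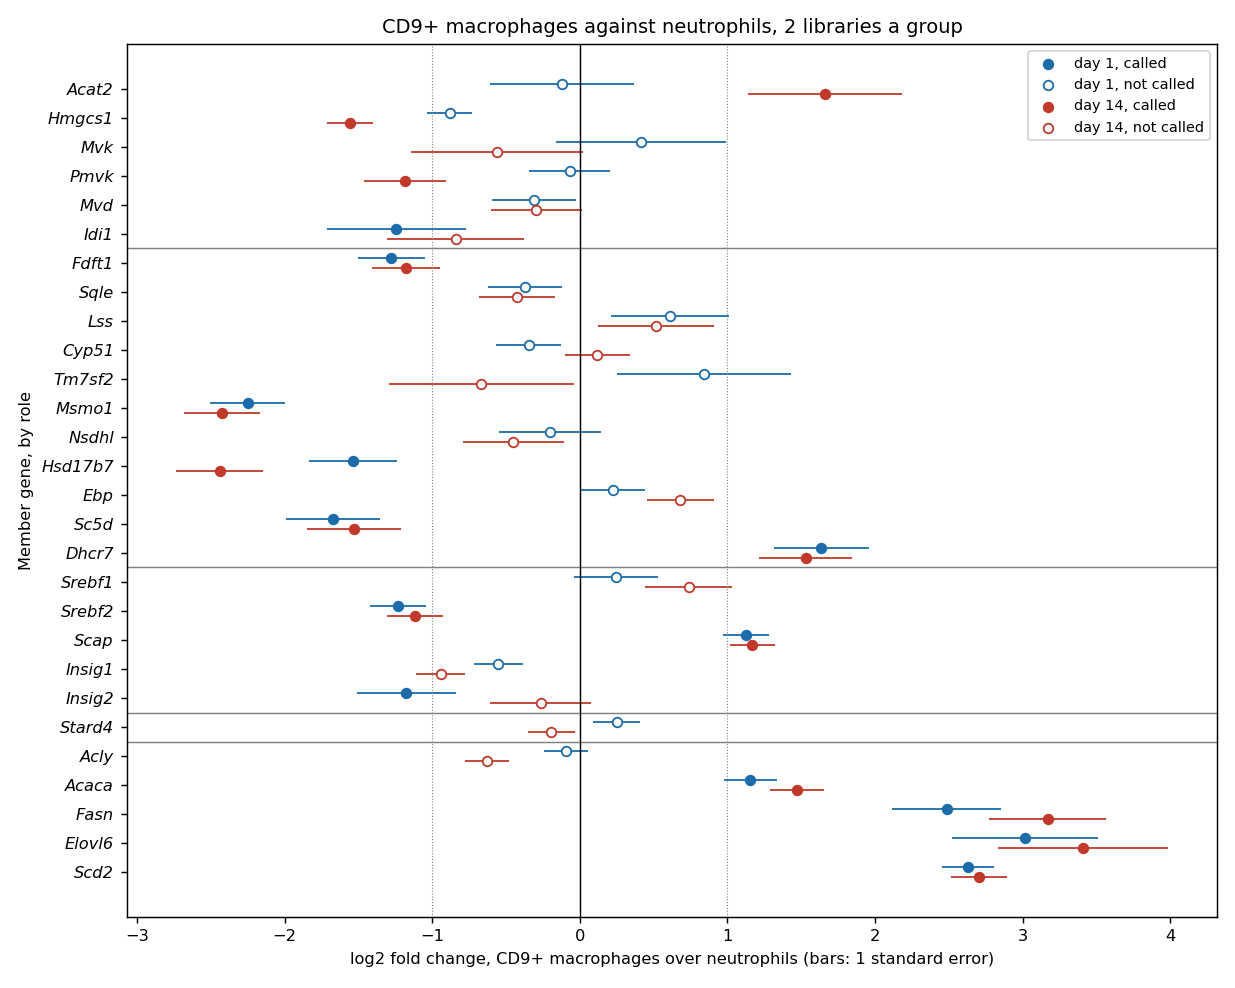
Log2 fold change of the 28 tested members between CD9+ macrophages and neutrophils on day 1 (blue) and day 14 (red), with bars of 1 standard error, where filled points were called and dotted lines mark a log2 fold change of 1 in each direction. Acaca, Fasn, Elovl6 and Scd2 lie to the right on both days (1.16 to 3.41), and Fdft1, Msmo1, Hsd17b7, Sc5d and Srebf2 to the left (-1.12 to -2.44).

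Seen as sums, the 17 tested sterol enzymes added up to 330 to 472 CPM in the 4 neutrophil libraries and 195 to 256 CPM in the other 12. All 5 tested fatty acid enzymes added up to 215 to 302 CPM in neutrophils and 306 to 437 CPM elsewhere, most of it from Acly in neutrophils, and the 4 without Acly to 25.0 to 41.6 CPM and 136 to 251 CPM. These sums carry the scaling: with library size alone as the scale, the median difference of all genes between CD9+ macrophages and neutrophils moved by 0.33 on day 1 and 0.49 on day 14 on the log2 scale. On day 1 the called members then split into 6 higher and 3 lower, and on day 14 into 10 and 4. With upper quartile factors they split into 6 and 5 and into 7 and 4. The share of all genes called with these scalings is not given here. The counts are therefore no result about the members as a set. No called member changed its direction under any scaling. The median log2 fold change of the members was -0.11 on day 1 and -0.36 on day 14, against 0.06 and 0.12 over all tested genes, and turned positive with library size alone (0.22 and 0.13). Mitochondrial genes took 3.9% to 6.5% of counts in neutrophils and 9.9% to 17.7% in the other libraries, and the part of this in the differences was not tested.

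The second question was what changed between days 1 and 14. Few members were called, but with 2 libraries in each group a missing call does not show that a gene was unchanged. Most of all tested genes were not called over time either, so these counts are no result about the members as a set. In CD9+ macrophages 3 members had an unadjusted p under 0.05, and DESeq2 called 0. There edgeR called 0 of 28, where 4.75% of all genes were higher and 3.48% lower on day 14. This count rested on the first library of day 1: without it 5 members were called (Hsd17b7, Idi1, Mvd, Sc5d and Srebf1, with 14.5% of all genes called), and without the second library 0. In CX3CR1+ macrophages 0 were called by edgeR and 0 by DESeq2, with 2 at an unadjusted p under 0.05 and a background of 2.39% higher and 3.47% lower. In F4/80- cells edgeR and DESeq2 called 0, with 5 at an unadjusted p under 0.05 and a background of 1.01% and 2.24%. Without the first F4/80- library of day 14, Scd2 was called there. In neutrophils 1 member was higher on day 14, Hsd17b7, and 1 lower, Srebf1, against 3.15% and 10.9% of all genes. The median change of the members was 0.09 in CD9+ macrophages, -0.03 in CX3CR1+ macrophages, -0.17 in F4/80- cells and 0.15 in neutrophils, beside medians of all genes of 0.00, 0.03, -0.02 and -0.02.

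The rise of Hsd17b7 in neutrophils, from 18.7 and 16.5 CPM to 46.5 and 45.1 CPM, was 2.60-fold (log2 fold change 1.38, SE 0.28, adjusted p = 0.00180) and was called in every alternative that was run. Srebf1, the SREBP gene that mainly drives fatty acid synthesis, had 59.0 and 56.8 CPM on day 1 and 27.2 and 29.6 CPM on day 14 in neutrophils. Its fall lay at the threshold (-1.02, SE 0.29, adjusted p = 0.0168) and was not called without any 1 of the 4 libraries, where it was -0.97 to -1.09, nor by DESeq2. Elsewhere Srebf1 had 40.2 and 97.7 CPM, then 41.2 and 53.6 CPM, in CD9+ macrophages, 63.6 and 54.8 CPM, then 53.1 and 51.8 CPM, in CX3CR1+ macrophages, and 51.0 and 42.3 CPM, then 37.3 and 47.8 CPM, in F4/80- cells. None of those changes was called.

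Some members passed the adjusted p with smaller changes than the fold threshold. By this wider rule 1, 2, 1 and 6 of 28 members passed in CD9+ macrophages, CX3CR1+ macrophages, F4/80- cells and neutrophils, against 17.7%, 12.6%, 6.10% and 27.7% of all genes. Scd2 was among them in each of the 4 populations. It had 77.8 and 89.99 CPM on day 1 and 44.8 and 54.0 CPM on day 14 in CD9+ macrophages (log2 fold change -0.76, SE 0.16). In CX3CR1+ macrophages it had 73.8 and 55.7 CPM, then 40.8 and 39.0 CPM (-0.70, SE 0.16), and in F4/80- cells 83.9 and 84.4 CPM, then 47.7 and 40.6 CPM (-0.93, SE 0.16). In neutrophils, at a lower level of 14.4 and 12.6 CPM, then 7.08 and 8 CPM, the log2 fold change was -0.84 (SE 0.19). The day 14 libraries thus lay below those of day 1 in all 4 populations, which were sorted from common pools of mice, by 1.62-fold to 1.91-fold, with adjusted p from 0.00322 to 0.0108. The share of all genes that fall in this way in each population was not counted, and Scd2 was 1 of 28 members looked at. Without 1 library the adjusted p was missed in CD9+ macrophages (without the first of day 14, -0.62), in CX3CR1+ macrophages (without the first of day 1, -0.48, or either of day 14, -0.74 and -0.66) and in F4/80- cells (without the second of day 14, -0.81).

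Insig1 had 24.9 and 18.8 CPM on day 1 and 28.03 and 27.9 CPM on day 14 in CD9+ macrophages, 40.9 and 32.9 CPM and then 58.6 and 51.6 CPM in CX3CR1+ macrophages, 24.6 and 24.8 CPM and then 30.1 and 27.0 CPM in F4/80- cells, and 31.5 and 33.1 CPM and then 55.8 and 51.7 CPM in neutrophils. The libraries of day 14 lay above those of day 1 in each population, a pattern whose share over all genes was not counted. The adjusted p was passed in CX3CR1+ macrophages (0.58, SE 0.16, adjusted p = 0.0287, lost with a replicate block and without the second library of day 1 or either of day 14) and in neutrophils (0.74, SE 0.16, adjusted p = 0.00378). Stard4, a carrier of cholesterol between membranes, had 17.9 and 15.9 CPM, then 29.9 and 30.5 CPM, in neutrophils (0.84, SE 0.16, adjusted p = 0.00131). Its other levels were 19.2 and 21.1 CPM, then 25.6 and 27.2 CPM, in CD9+ macrophages, 17.7 and 19.2 CPM, then 22.4 and 22.2 CPM, in CX3CR1+ macrophages, and 35.6 and 28.9 CPM, then 34.1 and 34.6 CPM, in F4/80- cells. Hmgcs1 in neutrophils passed the adjusted p as well (0.51, SE 0.15, adjusted p = 0.0207), but not with a replicate block (0.478) or without the second library of day 1 (0.43) or the first of day 14 (0.39).

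**Figure D4:**
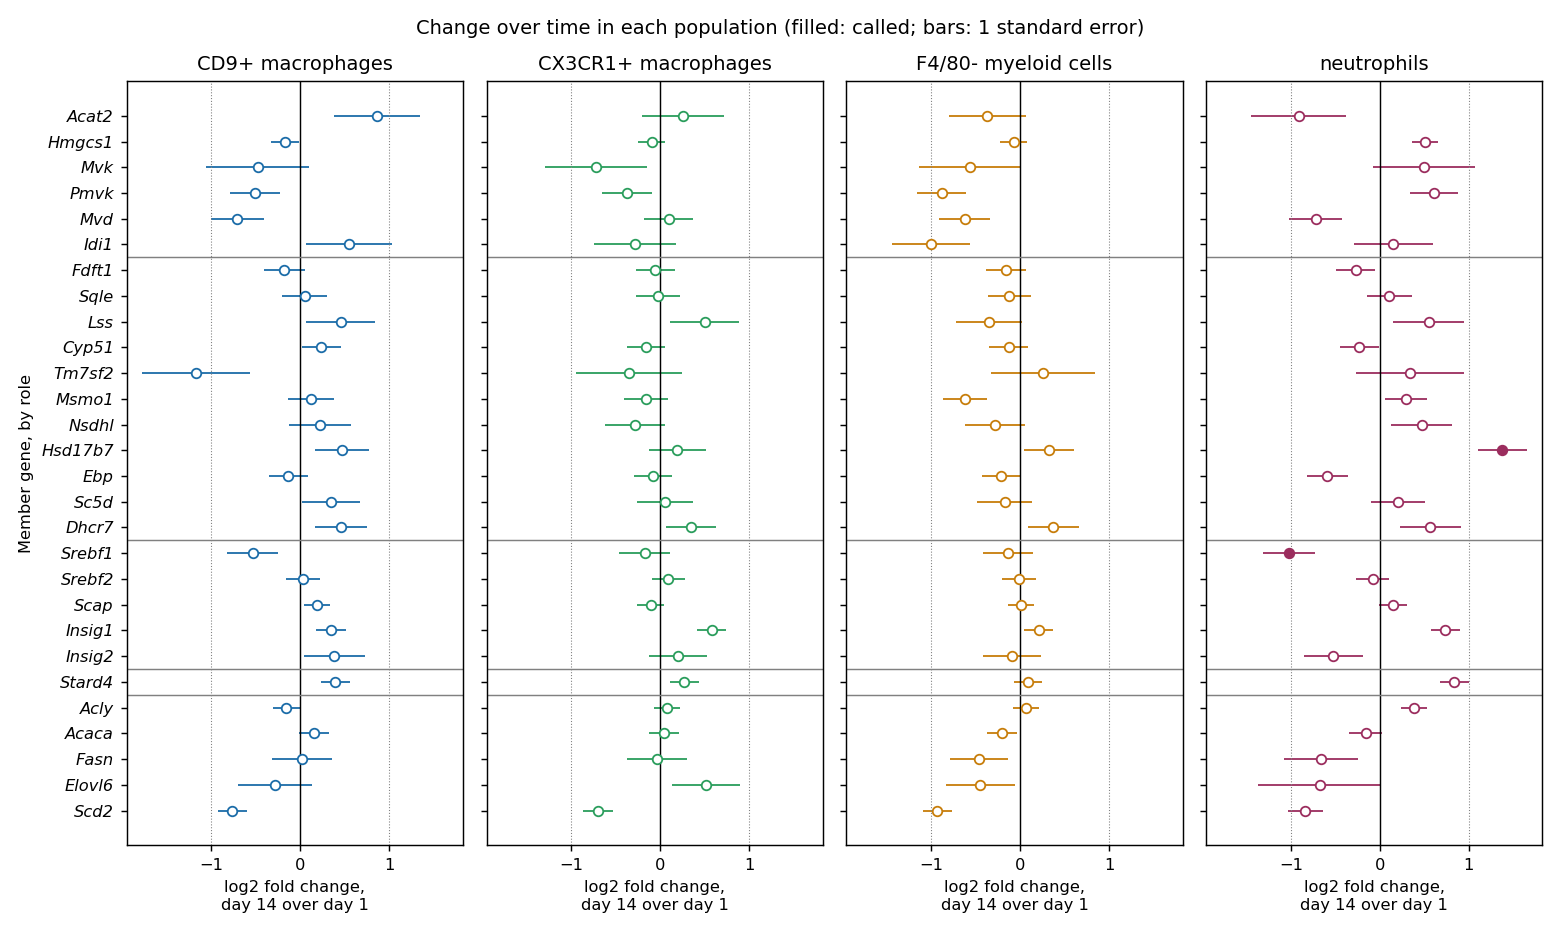
Log2 fold change of the 28 tested members from day 1 to day 14 in each population (panels), with bars of 1 standard error and filled points where a member was called. Only Hsd17b7 (1.38) and Srebf1 (-1.02) in neutrophils are filled, and Scd2 lies to the left of 0 in all 4 panels (-0.70 to -0.93).

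Whether the change over time differed between populations was tested as an interaction against CD9+ macrophages. No member was called for CX3CR1+ macrophages, F4/80- cells or neutrophils, where edgeR called 2.28%, 1.69% and 8.03% of all genes. At an unadjusted p under 0.05 there were 0, 1 and 5 members, and DESeq2 called 0, 0 and 1, the last being Pmvk. Leaving out the first CD9+ library of day 1 raised the counts to 1, 3 and 1, leaving out the second raised that for neutrophils to 3 (Fasn, Hsd17b7 and Srebf1), and leaving out the first neutrophil library of day 1 raised it to 1. The larger change of Hsd17b7 in neutrophils is therefore not shown to differ from that in CD9+ macrophages with all libraries.

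The third comparison set the macrophage populations against each other. On day 1 edgeR and DESeq2 called 0 of 28 members between CD9+ and CX3CR1+ macrophages, with 5 at an unadjusted p under 0.05, where 6.36% of all genes were higher and 1.88% lower in CD9+ cells. Without the first CD9+ library 3 were called (Idi1, Msmo1 and Sc5d, with 11.6% of all genes called), and without the second 1, Hsd17b7. On day 14, 1 member was higher (Hsd17b7) and 2 lower (Mvd and Elovl6) in CD9+ macrophages, against 9.65% and 4.55% of all genes. Mvd, the decarboxylase that makes the first isoprenoid unit, had 7.19 and 11.3 CPM on day 1 and 5.36 and 5.86 CPM on day 14 in CD9+ macrophages and 13.9 and 12.6 CPM, then 15.5 and 12.8 CPM, in CX3CR1+ macrophages. Its difference on day 14 was -1.33 (SE 0.30, adjusted p = 0.00348) and was called without any 1 library. F4/80- cells had 8.56 and 8.91 CPM, then 6.74 and 4.55 CPM, and neutrophils 10.8 and 11.98 CPM, then 8.28 and 5.54 CPM, so that CX3CR1+ macrophages held the highest level on day 14. Elovl6 had 14.6 and 12.3 CPM, then 18.9 and 19.5 CPM, in CX3CR1+ macrophages, and CD9+ macrophages were lower on day 14 by 2.90-fold (-1.53, SE 0.41, adjusted p = 0.0108). The size of this difference held without any 1 library (-1.53 to -1.56), but the adjusted p was missed without either CD9+ library or without the second CX3CR1+ library. Hsd17b7 had 3.41 and 3.44 CPM, then 3.21 and 4.62 CPM, in CX3CR1+ macrophages, the lowest of the 4 populations, and was higher in CD9+ macrophages on day 14 by 1.11 (SE 0.32), though not called without the second CD9+ library (0.84, when 1 member was called) or the first CX3CR1+ library (0.86).

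Whatever the fold, 2 members on day 1 and 5 on day 14 passed the adjusted p between these populations, against 15.7% and 26.3% of all genes, and those under the fold threshold were the regulators Insig1 and Scap. Insig1 was at -0.75 (SE 0.17) on day 1 and -0.98 (SE 0.17) on day 14 in CD9+ against CX3CR1+ macrophages, just under the fold threshold, and without the first CX3CR1+ library of day 1 it missed the adjusted p there (-0.60). Scap was at 0.57 (SE 0.15) and 0.86 (SE 0.15), and missed the adjusted p of day 1 without the same library (0.42). Its levels were 32.2 to 38.3 CPM in the CD9+ libraries and 20.4 to 24.6 CPM in the CX3CR1+ libraries. For both genes the libraries of the compared groups did not overlap on either day, a pattern whose share over all genes was not counted. The median log2 fold change of the members was -0.16 and -0.07, beside medians of all genes of 0.04 and 0.01.

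F4/80- myeloid cells held the highest levels of several members on day 1. CD9+ macrophages were lower than them in 2 members, Idi1 and Acat2, and higher in 0, against a background of 9.23% higher and 6.16% lower. Idi1 had 11.6 and 10.3 CPM on day 1 and 5.15 and 5.78 CPM on day 14 in F4/80- cells, so that CD9+ macrophages with 4.16 and 1.26 CPM were lower by -1.96 (SE 0.46, adjusted p = 0.00524) on day 1, and by -3.11 without the first CD9+ library. Acat2 had 3.65 and 4.34 CPM, then 3.41 and 2.77 CPM, in F4/80- cells, and the difference of -1.57 (SE 0.46) was lost without the second CD9+ library (-1.5) or the second F4/80- library (-1.45, when 1 member was called). Without the first CD9+ library 6 members were called (with Hsd17b7, Msmo1, Sc5d and Srebf1 added, beside 23% of all genes), and scaling by library size alone also gave 6. Fasn had 113 and 97.9 CPM on day 1 and 82.3 and 71.1 CPM on day 14 in F4/80- cells, above all other libraries of the same day, and the difference from CD9+ macrophages on day 1 of -0.93 (SE 0.33, adjusted p = 0.0478) was under the fold threshold, and Fasn was called without the second CD9+ library. On day 14 edgeR and DESeq2 called 0 members, with 3 at an unadjusted p under 0.05 and a background of 6.59% higher and 1.11% lower. The medians of the members were -0.21 and -0.03 on the log2 scale, and those of all genes 0.01 on both days.

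CX3CR1+ macrophages were lower than F4/80- cells in 5 members on day 1 and higher in 0, against 10.2% higher and 10.9% lower among all genes. These were Hsd17b7 (-1.55, SE 0.30, adjusted p = 6.98e-04), Idi1 (-1.32, SE 0.44), Acat2 (-1.20, SE 0.44), Lss, the cyclase that makes lanosterol (-1.17, SE 0.38), and Fasn (-1.16, SE 0.33). Fasn had 54.0 and 40.1 CPM, then 46.7 and 45.0 CPM, in CX3CR1+ macrophages, Idi1 4.55 and 4.22 CPM, then 4.26 and 2.96 CPM, and Acat2 1.84 and 1.61 CPM, then 1.74 and 2.40 CPM. With a replicate block 4 were called, as Acat2 (-1.2) missed the adjusted p. Leaving out any 1 of the 4 libraries left 2 called members. Hsd17b7 was called in each case, together with Fasn when the first CX3CR1+ or the second F4/80- library was left out, and with Lss when the second CX3CR1+ or the first F4/80- library was. On day 14, 1 member was higher, Mvd (1.32, SE 0.29), and 1 lower, Hsd17b7 (-1.69, SE 0.31), against 11.1% and 10.4%. Hsd17b7 had 9.92 and 10.2 CPM, then 13.6 and 11.6 CPM, in F4/80- cells, 2.93-fold and 3.22-fold above CX3CR1+ macrophages in the fit, and both calls held without any 1 library. Stard4 was below the level of F4/80- cells by -0.81 (SE 0.16) and -0.62 (SE 0.16), past the adjusted p only. Of the regulators 2 also passed the adjusted p alone on each day, with Scap at -0.48 and -0.59 and Insig1 at 0.58 and 0.95. Insig1 was called on day 14 without the second CX3CR1+ library or without the first F4/80- library of that day. The medians were -0.10 and 0.05, against 0.00 and 0.05 over all genes.

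Across all 12 comparisons, several of which share libraries, 19 of the 28 tested members were called at least once, with 41 calls in all, of which 27 (65.9%) came from the 2 comparisons with neutrophils. Of all tested genes 69.2% were called at least once, beside 67.9% of the members, and 45.3% of all calls came from those 2 comparisons. In the comparisons without neutrophils 7 members (25%) were called at least once, beside 35.9% of all genes. The 9 members called in none of the 12 comparisons were Mvk, Sqle, Cyp51, Tm7sf2, Nsdhl, Ebp, Insig1, Stard4 and Acly. In alternative settings, Insig1 was called by DESeq2 and with RLE factors in CD9+ macrophages against neutrophils on day 14. With no filter it was also called in CD9+ against CX3CR1+ macrophages on that day. Ebp was called with library size alone in CD9+ macrophages against neutrophils on day 14. Sqle, the squalene epoxidase that is a rate-limiting step of the sterol branch, had 8.18 and 12.3 CPM, then 12.2 and 8.89 CPM, in CD9+ macrophages and 10.2 and 12.3 CPM, then 11.8 and 10.3 CPM, in CX3CR1+ macrophages. It had 12.6 and 13.3 CPM, then 13.1 and 10.8 CPM, in F4/80- cells and 14.6 and 11.7 CPM, then 14.3 and 14.1 CPM, in neutrophils. Cyp51, the lanosterol demethylase, had 19.0 and 21.8 CPM, then 23.1 and 24.8 CPM, in CD9+ macrophages and 25.6 and 21.5 CPM, then 22.7 and 19.5 CPM, in CX3CR1+ macrophages. Its levels were 21.1 and 15.1 CPM, then 18.3 and 14.6 CPM, in F4/80- cells and 29.8 and 22.0 CPM, then 20.2 and 23.9 CPM, in neutrophils. These 2 genes lay within 8.18 to 14.6 CPM and 14.6 to 29.8 CPM over all 16 libraries, and neither passed the adjusted p in any comparison. Acly had 181 and 192 CPM, then 195 and 198 CPM, in CX3CR1+ macrophages and 170.4 and 187 CPM, then 196 and 178 CPM, in F4/80- cells. Ebp, the sterol isomerase, ranged from 12.6 to 32.6 CPM, Nsdhl, a dehydrogenase of the demethylation steps, from 6.12 to 15.1 CPM, Mvk, the mevalonate kinase, from 2.96 to 13.1 CPM, and Tm7sf2, a sterol reductase of which 12.1% of the exon length lies in exons of Vps51, from 0.707 to 4.65 CPM. Mvk had 2.96 and 13.05 CPM in CD9+ macrophages on day 1, against 7.03 and 4.72 CPM in neutrophils. Without the first of these CD9+ libraries Mvk was called in that comparison.

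Other genes of the same supply were looked at beside the members, in a list of 20 genes of which 17 had a row and 15 were tested. In CD9+ macrophages against neutrophils, 6 were higher and 3 lower on each day. Among all genes 27.9% were higher and 21.7% lower on day 1, and 29.6% and 19.9% on day 14. Lpin1, a phosphatidate phosphatase of lipid synthesis, had 9.73 and 2.32 CPM, then 15.5 and 17.2 CPM, in CD9+ macrophages and 0.972 and 1.05 CPM, then 1.68 and 0.308 CPM, in neutrophils. Fads1, a desaturase of polyunsaturated fatty acids, was higher in CD9+ macrophages by 3.61 (SE 0.50) and 3.62 (SE 0.54), and fell from day 1 to day 14 in CX3CR1+ macrophages by 2.35 on the log2 scale (SE 0.45), from 19.2 and 13.3 CPM to 2.61 and 3.79 CPM. Fads2, the partner desaturase, had 6.02 to 6.95 CPM in F4/80- cells, 0.365 to 2.93 CPM in the macrophages and at most 0.360 CPM in neutrophils. Acss2, which makes acetyl-CoA from acetate, was called higher in F4/80- cells than in both macrophage populations on both days, by 1.19 to 1.88 on the log2 scale. Tmem97, a sterol-responsive membrane protein, was higher in CD9+ macrophages than in neutrophils by 1.64 (SE 0.55) and 2.35 (SE 0.55). Over the other comparisons of this list, 0 to 3 genes were called in each direction.

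Of the machinery that processes and degrades SREBP and its partners, 7 of 8 genes were tested, and calls were made only against neutrophils. There 1 was higher and 2 lower in CD9+ macrophages on both days, beside 23.1% and 14.9% of all genes. Rnf145, a ubiquitin ligase that acts on SCAP, had 57.4 to 105 CPM in neutrophils against 17.3 to 29.6 CPM in CD9+ macrophages. Erlin1, which binds cholesterol in the endoplasmic reticulum and restrains SREBP, was higher in CD9+ macrophages by 1.06 (SE 0.20) and 1.03 (SE 0.21). Proliferation genes summed to 975 to 1861 CPM over 15 genes in neutrophils, 3045 to 5698 CPM in the macrophages and 5296 to 6579 CPM in F4/80- cells. Of the 15, 15 and 14 were higher in CD9+ macrophages than in neutrophils on days 1 and 14, beside 27.9% and 29.6% of all genes. In CX3CR1+ macrophages 4 and 5 were lower than in F4/80- cells, beside 10.9% and 10.4% of all genes. Mcm2, a helicase subunit of DNA replication, was higher in CD9+ macrophages than in neutrophils by 2.97 and 2.81 on the log2 scale. The part of proliferation in the levels of the members was not tested.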

How the data were processed

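The authors aligned the read pairs (SMART-Seq Stranded kit) to mm10 with STAR and the Gencode M23 annotation, and deposited raw counts per gene for the 16 libraries. Replicates are the libraries that the labels number within a group, each a pool of mice sorted into the 4 populations. Counts were scaled by TMM, and genes with a mean of at least 3 CPM, from library size, in at least 1 of 8 groups were kept (11998 of 20200). One edgeR 4.0.16 quasi-likelihood model (R 4.3.3) of the 8 group means gave 12 comparisons and 3 interactions, and calls needed both a p below 0.05 after Benjamini-Hochberg adjustment and a log2 fold change of 1 or more either way. Standard errors were the log2 fold change divided by the root of F. The scripts were tested on simulated data. With 2 libraries against 2, an exact two-sided permutation test cannot go below p = 0.333. The members and the other lists were chosen with earlier results of these data known. Values in every library are given for 12 members (Hmgcs1, Idi1, Sqle, Cyp51, Insig1, Srebf1, Srebf2, Stard4, Acly, Fasn, Scd1 and Scd2) and for the called members with the largest or smallest log2 fold change of a comparison, and the others are given by ranges and counts. Of each other list at most 5 genes are named, those called in most comparisons. Alternatives were DESeq2 1.42.0, other scalings and filters, no minimum fold, a replicate block and leaving out each library. The strand setting of the counting was not given in the sources used here, so overlapping genes are uncertain. Depth limits the genes with few reads most. Some genes of the other lists are not reported here by name.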

Additional observations from a re-analysis of the deposited data

How the results depend on the processing

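Of the 41 calls, 32 were kept in every setting that left out no library and tested the gene, and 24 also without any 1 library, while 12 could not be tested with a minimum CPM in every group. Of 12 results followed that passed the adjusted p alone, 9 and 5 were kept, and 0 of these 53 results changed direction. With no minimum fold the called members numbered 1, 2, 1 and 6 over time in CD9+ macrophages, CX3CR1+ macrophages, F4/80- cells and neutrophils, 2 and 5 between CD9+ and CX3CR1+ macrophages on days 1 and 14, 6 between CD9+ macrophages and F4/80- cells on day 1, and 8 and 5 between CX3CR1+ macrophages and F4/80- cells. For the counts against F4/80- cells the share of all genes was not computed. It was also not computed for counts at an unadjusted p under 0.05 or with a replicate block, and is not given here for other scalings or filters. Those counts are therefore no result about the members as a set. For change over time in neutrophils DESeq2, library size alone, upper quartile factors, RLE factors and no filter each gave 1 in place of 2, since Srebf1 then lay just under the fold threshold. A minimum CPM in every group, which tests fewer genes, gave 1 (CD9+ macrophages against F4/80- cells, day 1), 2 (CX3CR1+ macrophages against F4/80- cells, day 1) and 9 (CD9+ macrophages against neutrophils, day 14), and a median change of -0.11 over time in CX3CR1+ macrophages. Scaling by library size alone gave 6 called members between CD9+ macrophages and F4/80- cells on day 1 and medians of -0.41 (CD9+ against CX3CR1+ macrophages, day 1), -0.49 (CD9+ macrophages against F4/80- cells, day 1), 0.22 and 0.13 (CD9+ macrophages against neutrophils, days 1 and 14), beside shifts of the median of all genes of -0.24, -0.28, 0.33 and 0.49. DESeq2 called 1 member in the interaction of neutrophils. Leaving out 1 library at a time gave 0 to 5 called members over time in CD9+ macrophages, 0 to 1 in F4/80- cells and 1 to 1 in neutrophils, 0 to 3 and 1 to 3 between CD9+ and CX3CR1+ macrophages on days 1 and 14, 1 to 6 between CD9+ macrophages and F4/80- cells on day 1, 2 to 2 and 2 to 3 between CX3CR1+ macrophages and F4/80- cells, 10 to 13 and 13 to 14 against neutrophils, and 0 to 1, 0 to 3 and 0 to 3 in the interactions with CX3CR1+ macrophages, F4/80- cells and neutrophils. The medians without 1 library were -0.0658 to 0.0493 over time in CX3CR1+ macrophages, 0.00277 to 0.327 over time in neutrophils and -0.397 to 0.174 in CD9+ macrophages against neutrophils on day 1. Where a library left out left 1 sample in a group, that sample was assumed to vary like the other groups. Beyond those named, the cause was not tested.

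In a fit that took library numbers as a replicate block, day by day, the called members numbered 0, 0, 0 and 2 over time and 0, 3, 2, 0, 4, 2, 13 and 14 in the comparisons of populations, with Acat2 lost between CX3CR1+ macrophages and F4/80- cells on day 1. The block changed no other call. It also lost the adjusted p of Insig1 over time in CX3CR1+ macrophages and of Hmgcs1 in neutrophils. Same-numbered libraries of a day deviated together only weakly, with correlations of 0.0132 to 0.144 between populations, and whether a number marks 1 pool of mice was not stated. Depth limited Scd1, Fdps, Acat2, Idi1, Tm7sf2 and, in neutrophils, Elovl6, which had from 0 to 12 reads in their lowest libraries.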

Other observations

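Genes of cholesterol efflux, esterification and the LXR response were looked at as a list of 14, all tested. Abca1, the transporter that loads cholesterol onto apolipoproteins, fell from day 1 to day 14 in all 4 populations. It had 334 and 591 CPM, then 129 and 227 CPM, in CD9+ macrophages (log2 fold change -1.38, SE 0.31), 148 and 187 CPM, then 24.6 and 34.0 CPM, in CX3CR1+ macrophages (-2.52, SE 0.33), 25.7 and 28.1 CPM, then 3.33 and 3.99 CPM, in F4/80- cells (-2.88, SE 0.39), and 360.2 and 548 CPM, then 5.40 and 10.1 CPM, in neutrophils (-5.86, SE 0.39). Nr1h3, the LXR alpha receptor, and Apoe, the apolipoprotein that carries exported cholesterol, fell in CX3CR1+ macrophages (-1.98, SE 0.51, and -1.002, SE 0.21) and in neutrophils (-2.23, SE 0.78, and -1.49, SE 0.22). In neutrophils Nr1h3 was near the limit of detection, at 2.02 and 1.14 CPM, then 0.360 and 0.308 CPM, the latter from at most 3 reads in each library. The 5 macrophage markers summed to 567 and 579 CPM on day 1 and 179 and 185 CPM on day 14 in neutrophils. In CX3CR1+ macrophages they held 1483 and 1635 CPM, then 1213 and 1315 CPM. CD9+ macrophages had 1121 and 1515 CPM, then 720 and 1103 CPM, and F4/80- cells 214 and 199 CPM, then 186 and 172 CPM. In that order of populations 3, 2, 1 and 0 of the 5 markers were called lower on day 14, beside 10.9%, 3.47%, 3.48% and 2.24% of all genes. The part of these markers in the changes over time was not tested. Between populations, 8 and 7 of the 14 were higher in CD9+ macrophages than in F4/80- cells on days 1 and 14 and 9 on each day in CX3CR1+ macrophages, with 0 lower. Among all genes 9.23% and 6.59% were higher in CD9+ macrophages, and 10.2% and 11.1% in CX3CR1+ macrophages. Against neutrophils 4 and 7 were higher and 1 lower in CD9+ macrophages, where 27.9% and 29.6% of all genes were higher and 21.7% and 19.9% lower. Apoe was higher in CD9+ macrophages than in F4/80- cells by 5.76 (SE 0.25) and 5.31 (SE 0.25). Between the macrophage populations 1 was higher in CD9+ cells on day 1, and 3 were higher and 2 lower on day 14, among them Cyp27a1, the sterol 27-hydroxylase (-2.84, SE 0.32), and Npc2, which carries cholesterol out of lysosomes (-1.03, SE 0.19). Over time 1 was higher in CD9+ macrophages and 1, Cyp27a1, in F4/80- cells. The macrophage markers summed to 720 to 1635 CPM in the macrophage libraries and 172 to 214 CPM in F4/80- cells. Their part in the differences between populations was not tested.

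Of 14 genes of fatty acid beta-oxidation 13 were tested. Between CD9+ macrophages and neutrophils 2 were higher on both days, Decr1, a reductase for unsaturated fatty acids (2.62, SE 0.39, and 5.17, SE 0.55), and Etfa, an electron carrier (1.5, SE 0.28, and 1.27, SE 0.30), and 1 lower, Slc25a20, the carnitine carrier (-1.37, SE 0.19, and -1.77, SE 0.21). Among all genes 23.1% were higher and 14.9% lower in CD9+ macrophages than in neutrophils on both days. Decr1 fell over time in neutrophils, from 1.495 and 1.57 CPM to 0.240 and 0.205 CPM, the latter from 2 reads in each library. Slc25a20 was lower on day 14 in CD9+ macrophages (-1.001, SE 0.21), and 0 genes of the list were called by edgeR in the 8 other comparisons.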
